A study of Homo sapiens with 12 samples.

Results

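The replication-dependent histone genes were chosen by their symbol, as the 84 of 51838 genes in the count table whose symbol begins HIST1H to HIST4H. The group was taken up because its summed share of the counts was already known to be lower after dexamethasone in HCC70, so that sum is given as a description with no test. The 84 genes comprise 24 of class H2B, 21 of H2A, 16 of H4, 15 of H3 and 8 of H1. Of these, 64 carry the HIST1 prefix, 15 HIST2, 4 HIST3 and 1 HIST4. The symbols of 10 members mark them as pseudogenes by the letters PS. Current symbols can differ, as H3-7 for HIST2H3PS2 and H2BP2 for HIST2H2BB, so this number follows the older symbols alone. Genes known for expression in testis, such as HIST1H1T, also meet the rule, so the name describes most members and not all.

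The study sequenced RNA of HCC70 and MDA-MB-231, established human breast cancer lines labelled basal-like, in 4 groups: HCC70 cells given 100 nM dexamethasone for 4 h, HCC70 cells given the ethanol vehicle, MDA-MB-231 cells given 100 nM dexamethasone for 4 h, and MDA-MB-231 cells given the ethanol vehicle. Each group had 3 libraries. Dexamethasone (DEX) is a synthetic glucocorticoid that activates the glucocorticoid receptor, and the stated purpose was to find genes under the control of that receptor and of STAT3. The medium was RPMI for HCC70 and DMEM for MDA-MB-231, so an effect of the medium cannot be told apart from one of the line. Nothing in the labels ties the 3 libraries of a group to separate cultures, and the p-values then cover the spread between libraries alone, which may be technical.

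Histones are the proteins that package DNA: H2A, H2B, H3 and H4 form the nucleosome core and H1 binds the linker DNA between cores. The genes described here are transcribed mainly while DNA is copied, in S phase, to supply new chromatin. Their messages are the known exception among animal mRNAs in that most end in a conserved stem-loop, bound by the protein SLBP, and have no polyA tail. A few members are known also to make longer, polyadenylated transcripts. The libraries were made from RNA selected for polyA tails, so the counts reflect the transcripts that this selection kept, and a difference in tailed transcripts cannot be told apart from one in all transcripts of a gene.

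The stem-loop is shown for members on which the results turn, because it marks where the usual histone message ends. Sites were read from GENCODE 29 transcripts after the end of the longest open reading frame, and the capitals mark the stem, loop and stem.
HIST2H4A: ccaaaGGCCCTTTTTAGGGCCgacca
HIST1H2AC: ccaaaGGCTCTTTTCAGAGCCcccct
HIST1H4H: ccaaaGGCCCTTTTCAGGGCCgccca
HIST2H2BE: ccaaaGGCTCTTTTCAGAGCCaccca
HIST2H3C: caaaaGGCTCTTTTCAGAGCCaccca
HIST2H4A, HIST1H4H and other H4 genes encode the core histone H4, HIST1H2AC encodes an H2A, HIST2H2BE an H2B and HIST2H3C an H3. A stem-loop was found in 32 members, among them 31 of the 32 with a transcript of 60 or more bases after the stop codon. The exception was HIST1H2BJ. In 23 members an annotated transcript ran more than 100 bases past it, and in 15 of these the letters AATAAA, the usual polyA signal, followed it. HIST1H2AC is one of them, with 1114 bases annotated after the stem-loop, and HIST2H2BE another, with 1729.

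The promoters of HIST2H4A and HIST1H2AC, the members called lower after DEX in HCC70, and of HIST1H2BK, the member with the most counts, are shown from 250 bases before to 50 after the gene start, as RefSeq gives them on GRCh38.p14. Capitals mark the octamer ATTTGCAT, the CCAAT box and the TATA letters TATAA, each searched on both strands, where TATAA and its reverse can overlap. HIST2H4A lies on the + strand at chr1:149832407-149832706, HIST1H2AC on the + strand at chr6:26123922-26124221 and HIST1H2BK on the - strand at chr6:27146809-27147108.
HIST2H4A: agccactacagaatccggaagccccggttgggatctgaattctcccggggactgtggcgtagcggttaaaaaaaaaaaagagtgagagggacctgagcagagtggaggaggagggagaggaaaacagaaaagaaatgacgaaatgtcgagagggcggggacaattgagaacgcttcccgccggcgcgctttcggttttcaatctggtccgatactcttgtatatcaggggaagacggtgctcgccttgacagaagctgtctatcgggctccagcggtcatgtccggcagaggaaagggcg
HIST1H2AC: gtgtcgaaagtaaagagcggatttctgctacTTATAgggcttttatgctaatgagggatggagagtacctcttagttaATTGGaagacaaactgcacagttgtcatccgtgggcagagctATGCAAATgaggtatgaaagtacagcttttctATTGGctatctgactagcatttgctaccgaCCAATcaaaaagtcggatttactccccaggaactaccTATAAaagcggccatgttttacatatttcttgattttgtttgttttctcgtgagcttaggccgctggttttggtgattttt
HIST1H2BK: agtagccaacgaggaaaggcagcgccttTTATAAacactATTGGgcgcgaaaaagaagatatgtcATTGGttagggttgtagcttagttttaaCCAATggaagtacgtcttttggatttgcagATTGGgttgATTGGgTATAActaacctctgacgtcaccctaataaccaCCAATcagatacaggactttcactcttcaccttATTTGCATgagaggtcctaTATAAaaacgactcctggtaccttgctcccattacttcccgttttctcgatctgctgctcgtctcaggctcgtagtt
Of 61 members with a promoter in the table, 21 (34.4%) held the octamer, against 2.19% of 27305 genes. The octamer was in 11 of 16 H2A, 9 of 13 H2B, 1 of 13 H3, 0 of 6 H1 and 0 of 13 H4 promoters. CCAAT was in 51 of 61 member promoters (83.6%), against 39.7% of all genes, and TATAA in 56 of 61 (91.8%), against 24.2%. CCAAT was in all 16 H2A and all 13 H2B promoters searched, but in 3 of 13 H4 promoters. The HIST2H4A promoter held none of these letters, which says nothing of the factors that bind it.

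Library totals ran from 106300000 to 123200000 gene counts, and the members took 196474 counts over all 12 libraries. The MDA-MB-231 vehicle 1 and DEX 2 libraries stood furthest from their groups, with root mean square deviations of 0.197 and 0.186 on the log2 scale, against 0.0773 to 0.169 in the other libraries. Counts came without strand and members lie close together, so reads of overlapping or antisense transcripts cannot be told apart. HIST2H4A and HIST2H4B share 97.5% and 97.2% of their 50-base windows and differ by at most 14 counts in any library, so they are 1 measurement counted under both names. The same holds for HIST2H3A and HIST2H3C, with at most 6 counts of difference. HIST2H2BC and HIST2H2BD differ by at most 12 counts, although they share only 9.2% and 16.5% of their windows. They are treated as a near-equal pair by their counts. HIST2H2AA3 and HIST2H2AA4 also share nearly all their sequence. The identifiers of HIST2H2BC and HIST2H2AA4 carry the symbols HIST2H2BD and HIST2H2AA3 in GENCODE 29. Windows were matched by symbol, so for these pairs they may not be those of the genes counted. In HCC70 the basal markers KRT5 and KRT14 averaged 2595 and 86.7 CPM in vehicle, and in MDA-MB-231 they averaged 0.804 and 0.238 CPM, while the mesenchymal marker VIM averaged 145 and 2212 CPM in these groups. All 10 basal markers reached 0.5 CPM in HCC70 and 8 of 10 in MDA-MB-231. KRT5 was among these 8 and KRT14 was not, and both, which define basal cells, were far lower in MDA-MB-231 than in HCC70. EGFR, also on the basal list, averaged 328 CPM in HCC70 vehicle and 356 CPM in MDA-MB-231 vehicle. The basal list summed to 4241 to 4568 CPM in HCC70 vehicle and 1055 to 1098 CPM in MDA-MB-231 vehicle. A luminal list summed to 3914 to 4037 CPM and 1823 to 2103 CPM in these groups. FKBP5, a known glucocorticoid target, averaged 218 and 35.2 CPM in HCC70 DEX and vehicle libraries, and 1119 and 56.2 CPM in MDA-MB-231 DEX and vehicle libraries. CPM are counts per 1000000 counts of a library after TMM scaling (edgeR) and are not corrected for gene length.

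The histone genes took a smaller share of the counts in HCC70 after DEX than in vehicle, and a far smaller share in MDA-MB-231 than in HCC70. In CPM taken on a library's total gene counts, without TMM scaling, the members summed to 185, 189 and 180 in the HCC70 DEX libraries, against 254, 248 and 237 in the HCC70 vehicle libraries. All 3 DEX libraries lay below all vehicle libraries, with means of 184 ± 4.58 and 247 ± 8.67 (SD, n = 3 each), a ratio of 0.748. In MDA-MB-231 the sums were 64.8, 54.3 and 65.0 in DEX libraries, against 55.7, 58.8 and 63.5 in vehicle libraries. These groups overlapped, with a ratio of 1.04. In vehicle, the HCC70 mean was 4.16 times that of MDA-MB-231. Fewer cells making these RNAs and less RNA per cell cannot be told apart in bulk RNA.

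**Figure D1:**
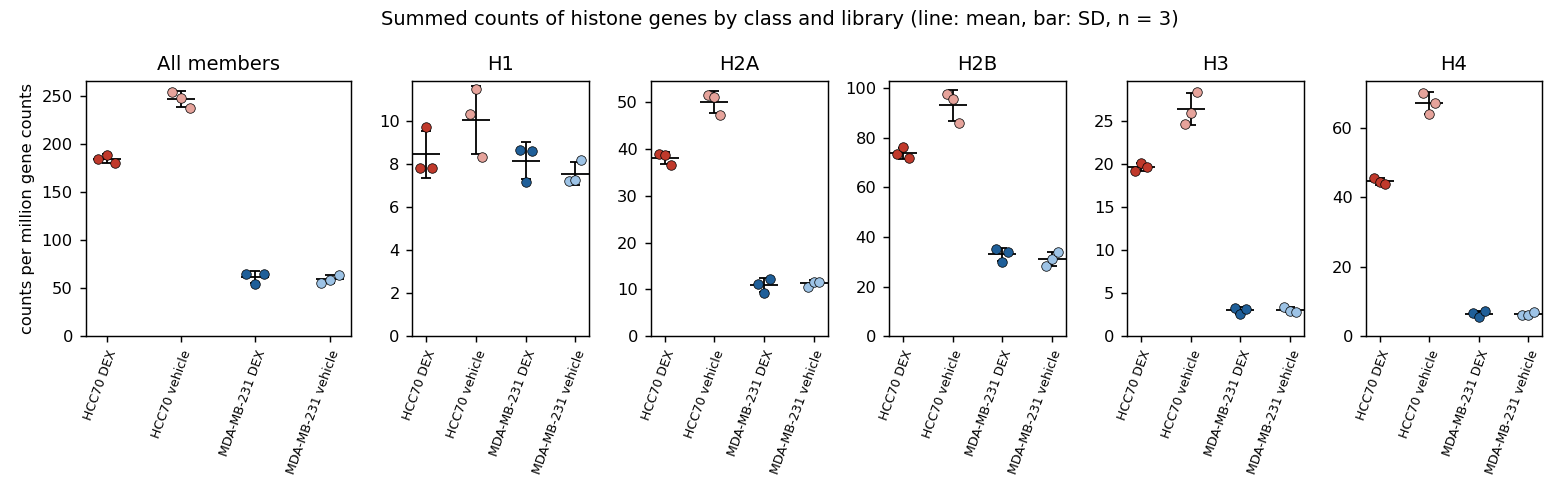
Summed CPM on total gene counts (y axis, linear from 0) of all 84 members and of each class in the 12 libraries, as points with the mean and SD of each group of 3. The HCC70 DEX libraries lie between 180 and 189 and the HCC70 vehicle libraries between 237 and 254, while both MDA-MB-231 groups lie between 54.3 and 65.0.

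Each class had a lower mean sum in HCC70 DEX than in HCC70 vehicle libraries. H4 genes summed to 44.6 in HCC70 DEX and 67.1 in HCC70 vehicle libraries in the same unscaled CPM, a ratio of 0.664, which rests mostly on HIST2H4A and HIST2H4B: without both it was 0.73. The ratios of DEX to vehicle were 0.745 for H3, 0.76 for H2A, 0.792 for H2B and 0.841 for H1, the linker histones, whose DEX and vehicle libraries overlapped. By cluster the ratio was 0.703 for HIST2, 0.796 for HIST1, 0.786 for HIST4 and 0.946 for HIST3. It was 0.793 for the 8 members known to make polyadenylated transcripts and 0.711 for the other 76. In MDA-MB-231 the class ratios lay between 0.967 and 1.08.

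Other measures moved with the HCC70 sum. The share of mitochondrially encoded genes was 2.77% in HCC70 DEX and 3.6% in HCC70 vehicle libraries, a ratio of 0.768, and 3.37% and 3.1% in MDA-MB-231. A list of other RNAs known to lack a polyA tail, such as RN7SL1, the RNA of the signal recognition particle, summed to 34.97 in HCC70 DEX and 48.08 in HCC70 vehicle libraries in the same unscaled CPM, a ratio of 0.727, against 0.989 in MDA-MB-231. That ratio rests mostly on RN7SL1, at 35.16 CPM in HCC70 DEX and 45.51 CPM in HCC70 vehicle after TMM scaling (adjusted p = 0.155 by edgeR). SCARNA10, the next highest, had a log2 fold change of -0.004 in HCC70. All 7 list members that were tested had log2 fold changes below 0 in HCC70, with a median of -0.42, and 0 passed by edgeR or by DESeq2, with 1 at an unadjusted p under 0.05. Fold changes also ran with GC content across genes, with Spearman's rho of 0.464 in HCC70 and -0.428 in MDA-MB-231 over 17121 genes, and members are richer in GC (median 57.4%) than all genes (46.7%). Genes between the quartiles of the members' GC content (47.4 to 61.7%) had a median log2 fold change of 0.02 in HCC70, where the members had -0.33. With a GC and length correction in the fit, the members' median in HCC70 was -0.40, 53 of 59 were below 0 and 6 were called lower, where 3.16% of all genes were. Nothing is read from these calls, because the contrast was known when the group was taken up. The part of tails, mitochondrial share and GC content in the result was not tested.

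A low-count filter left 59 members for the tests across 28141 genes. A further 23 members had counts but did not pass, and HIST1H2APS1 and HIST1H2APS2 had none. In HCC70, 53 of the 59 had log2 fold changes below 0 for DEX over vehicle, with a median of -0.33, where the median of all genes tested was -0.01. By edgeR's quasi-likelihood test with Benjamini-Hochberg adjustment over all genes, 3 members fell and 0 rose, with 22 and 0 at an unadjusted p under 0.05 and 5 and 0 called by DESeq2. Over all genes, 1.4% were called lower and 2.55% higher in this comparison. Nothing is read from these counts, because the contrast was known when the group was taken up. Fitted on the HCC70 libraries alone, with no MDA-MB-231 library to share in the estimate of spread, 17 of 53 members were lower and 0 higher, where 7.13% of all genes were called lower. With MDA-MB-231 vehicle 1 and DEX 2 left out of the common fit, 10 of 60 were lower, where 4.67% of all genes were. Nothing is read from these calls either.

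HIST2H4A had 21.04, 19.42 and 19.55 CPM in the HCC70 DEX libraries, against 30.32, 26.94 and 29.38 CPM in the HCC70 vehicle libraries. The groups did not overlap, and the fall was 1.44-fold (log2 fold change -0.53, SE 0.08, adjusted p = 0.00136 by edgeR). HIST2H4B gave the same values within 14 counts a library. HIST1H2AC had 18.2, 16.2 and 16.7 CPM after DEX, against 22.4, 21.4 and 19.4 CPM in vehicle, again without overlap, and fell by 0.31 on the log2 scale (SE 0.08, adjusted p = 0.0484 by edgeR). That call is at the edge of the threshold and was lost in 12 of 22 alternative fits. Under a GC and length correction the log2 fold change itself was smaller, at -0.18 (adjusted p = 0.157 by edgeR). In the other 11 it lay between -0.36 and -0.26, with adjusted p up to 0.229. They included a replicate block (0.132) and the fits without HCC70 DEX 1, 2 or 3, HCC70 vehicle 1 or 2, MDA-MB-231 DEX 1 or 3, or MDA-MB-231 vehicle 2.

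HIST1H2BK, an H2B gene that held 23.6% of all member counts, had 40.2, 42.9 and 39.9 CPM in HCC70 DEX libraries, against 49.7, 49.2 and 42.0 CPM in HCC70 vehicle libraries. The groups overlapped, and the log2 fold change of -0.20 (SE 0.08) did not pass, with an adjusted p of 0.196 by edgeR. The 10 members with most counts together held 78.2% of the counts, and 5 of them are on the polyadenylated list. HIST2H2BE had 17.5, 17.5 and 15.9 CPM after DEX, against 23.28, 21.66 and 21 CPM in vehicle, with a log2 fold change of -0.37 and an adjusted p of 0.117 by edgeR. HIST2H2AA3, an H2A gene, had 10.6, 10.6 and 9.63 CPM after DEX, against 13.0, 13.7 and 12.5 CPM in vehicle. HIST2H3C had 8.82, 8.9 and 8.91 CPM after DEX, against 10.5, 10.8 and 12.3 CPM in vehicle. In each of HIST2H2BE, HIST2H2AA3 and HIST2H3C the groups stood apart although the test was not passed, with an adjusted p of 0.11 for HIST2H2AA3 and 0.154 for HIST2H3C by edgeR. HIST1H2BD, an H2B gene, had 6.61, 5.68 and 5.66 CPM after DEX, against 7.6, 7.07 and 6.95 CPM in vehicle. HIST1H1C, which encodes a linker histone, had 8.05, 9.98 and 7.67 CPM after DEX, against 9.79, 10.7 and 7.85 CPM in vehicle. The HIST1H2BD groups stood apart and those of HIST1H1C overlapped, and neither passed (adjusted p = 0.227 and 0.569 by edgeR).

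**Figure D2:**
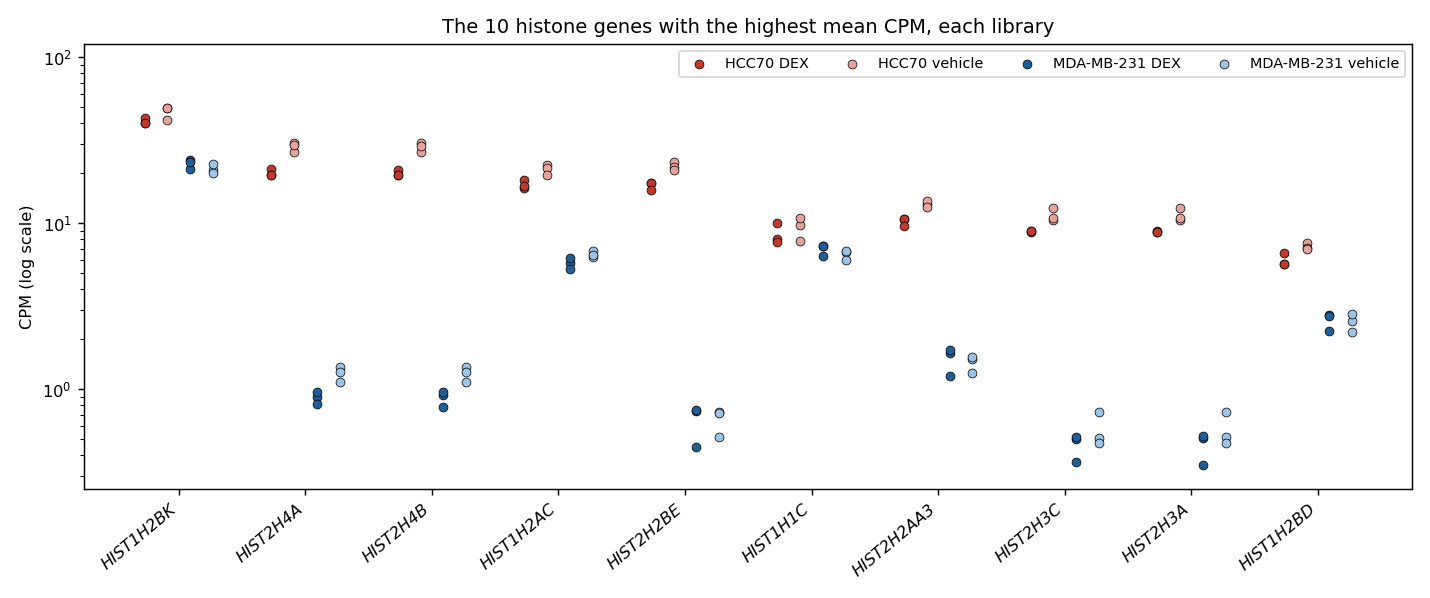
CPM (log axis) of the 10 members with the highest mean, 3 points a group, with DEX left of vehicle and HCC70 left of MDA-MB-231. HIST2H4A and HIST2H4B sit near means of 20 CPM in HCC70 DEX, 28.9 CPM in HCC70 vehicle, 0.888 CPM in MDA-MB-231 DEX and 1.24 CPM in MDA-MB-231 vehicle, while HIST1H1C is 1.46-fold higher in HCC70 vehicle than in MDA-MB-231 vehicle.

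Among the 20 tested members with a mean of 1 CPM or more, log2 fold changes in HCC70 lay between -0.53 and 0.05, and 19 were below 0. In 15 of the 20, all DEX libraries lay below all vehicle libraries, and in the other 5 they overlapped. With each near-equal pair taken once, these are 12 of 17 measurements. HIST2H2AA3 and HIST2H2AA4, which share nearly all their sequence, are kept apart in this count. The share of all genes that stood apart in this way was not counted, so nothing is read from these numbers. HIST3H2A, an H2A gene, was the 1 of the 20 above 0, with 2.98, 3.14 and 2.3 CPM after DEX, against 2.57, 3.04 and 2.53 CPM in vehicle. Below 1 CPM, values were spread more widely, down to -1.41 for HIST1H3C, an H3 gene, with an adjusted p of 0.41 by edgeR.

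In MDA-MB-231 the members had log2 fold changes on both sides of 0. The median log2 fold change of the 59 was -0.02, with 31 below 0, and the median of all genes was -0.01. In 3 members all DEX libraries lay above and in 6 below all vehicle libraries, and the other 50 overlapped. How many of all genes stood apart in this way was not counted, so nothing is read from these numbers. By the same edgeR test 1 member rose, HIST1H4H, and 2 fell, HIST2H4A and its copy HIST2H4B. Over all genes 6.65% rose and 7.96% fell, so the members' share was not above the background. When MDA-MB-231 was fitted alone, 0 of 41 members passed, with 1 higher and 3 lower at an unadjusted p under 0.05, while DESeq2 on all libraries called 1 higher and 5 lower.

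HIST2H4A had 0.896, 0.808 and 0.96 CPM in MDA-MB-231 DEX libraries, against 1.36, 1.09 and 1.26 CPM in MDA-MB-231 vehicle libraries. It was 1.39-fold lower (log2 fold change -0.48, SE 0.11, adjusted p = 0.00884 by edgeR), a size close to that in HCC70, with a difference between the lines of -0.05 (SE 0.14, adjusted p = 0.859 by edgeR), which does not show that the responses were equal. Without MDA-MB-231 vehicle 1 its adjusted p was 0.0501, without vehicle 1 and DEX 2 it was 0.0947, and with the line fitted alone 0.0956. HIST1H4H had 1.22, 1.04 and 1.26 CPM after DEX, against 0.72, 0.937 and 0.771 CPM in vehicle. Its rise was 1.45-fold (log2 fold change 0.53, SE 0.13, adjusted p = 0.0144 by edgeR), with no overlap of the groups, and the call was lost in 5 of 22 alternatives, with adjusted p of 0.0635 with a replicate block, 0.0738 with the line alone, and 0.056, 0.0686 and 0.0634 without MDA-MB-231 DEX 1, DEX 3 or vehicle 1.

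The other members of highest count gave overlapping MDA-MB-231 groups, apart from HIST1H2AC. HIST1H2AC had 5.74, 5.25 and 6.19 CPM after DEX, against 6.23, 6.74 and 6.38 CPM in vehicle, with an adjusted p of 0.185 by edgeR. HIST1H2BK had 24.03, 21.23 and 23.24 CPM after DEX, against 20.99, 20 and 22.61 CPM in vehicle. HIST1H1C had 7.24, 6.29 and 7.31 CPM after DEX, against 6.69, 5.97 and 6.75 CPM in vehicle. HIST1H2BK and HIST1H1C thus had log2 fold changes of 0.11 and 0.10 here, and neither passed. HIST2H2BE had 0.735, 0.444 and 0.751 CPM after DEX, against 0.51, 0.726 and 0.718 CPM in vehicle. HIST2H2AA3 had 1.65, 1.2 and 1.72 CPM after DEX, against 1.52, 1.25 and 1.55 CPM in vehicle. HIST2H3C had 0.498, 0.363 and 0.511 CPM after DEX, against 0.728, 0.508 and 0.473 CPM in vehicle. None of HIST2H2BE, HIST2H2AA3 and HIST2H3C passed. HIST1H2BD had 2.79, 2.23 and 2.76 CPM after DEX, against 2.2, 2.56 and 2.84 CPM in vehicle, and did not pass.

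**Figure D3:**
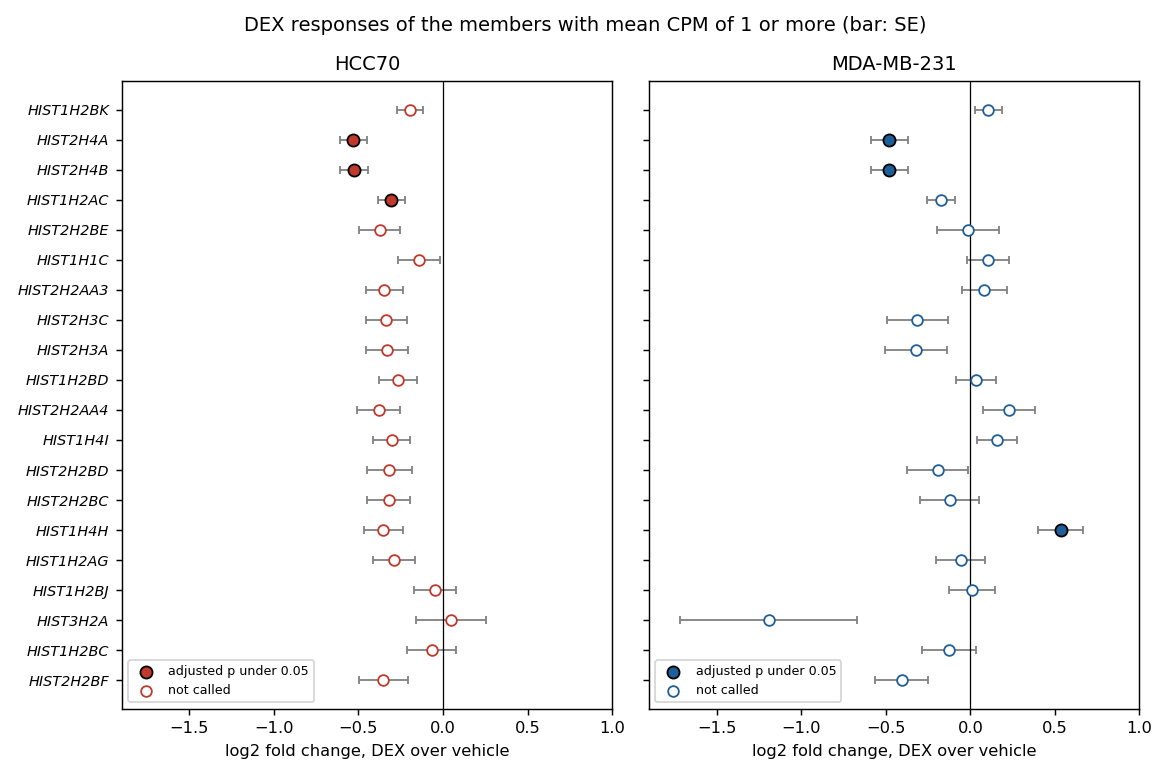
Log2 fold change of DEX over vehicle with its SE (edgeR) for the 20 members with a mean of 1 CPM or more, HCC70 on the left and MDA-MB-231 on the right, with filled points where the adjusted p is under 0.05. In HCC70 19 of the 20 lie below 0, and in MDA-MB-231 12 do.

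The difference between the responses (HCC70 minus MDA-MB-231) passed for HIST1H4H alone among the 59 members, where 12.1% of all genes were called. HIST1H4H had 2.23, 2.46 and 2.36 CPM in HCC70 DEX libraries, against 3.08, 3.11 and 2.81 CPM in HCC70 vehicle libraries, so its groups stood apart in both lines, in opposite directions. The difference was -0.89 on the log2 scale (SE 0.18, adjusted p = 0.00602 by edgeR) and passed in all 21 alternatives. The HCC70 log2 fold change of -0.35 did not pass by itself (adjusted p = 0.127 by edgeR). No member passed as higher in this difference, with 1 at an unadjusted p under 0.05 and 0 by DESeq2, which called 4 as lower.

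In vehicle, HCC70 held more counts than MDA-MB-231 for most members. Of 59 tested, 51 were higher and 5 lower in HCC70 by edgeR, where 39.2% of all genes were higher and 40% lower. The median log2 fold change of HCC70 over MDA-MB-231 was 2.01, against -0.03 over all genes. All 10 tested H4 members and 13 of 14 H2A members were higher, as were 15 of 18 H2B, 9 of 12 H3 and 4 of 5 H1 members. Members that passed the filter only through HCC70 had to differ, so this count is a description. Of the 23 members with a transcript annotated past the stem-loop, 6 had a median count of 0 in MDA-MB-231 and passed the filter only through HCC70. The other 17 were higher in HCC70, with a median log2 fold change of 2.43. They include HIST3H2A, with 6, 4 and 6 counts in MDA-MB-231 DEX and 20, 12 and 3 in MDA-MB-231 vehicle libraries. It too passed only through HCC70, so the count of 17 is also a description.

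HIST2H2BE showed the widest gap among members above 0.5 CPM, with 23.28, 21.66 and 21 CPM in HCC70 vehicle, against 0.51, 0.726 and 0.718 CPM in MDA-MB-231 vehicle, a 33.7-fold difference (log2 fold change 5.07, SE 0.16, adjusted p = 8.38e-13 by edgeR). HIST3H2A had 2.57, 3.04 and 2.53 CPM in HCC70 vehicle, against 0.167, 0.0937 and 0.0263 CPM in MDA-MB-231 vehicle, a 27.8-fold difference. The MDA-MB-231 values rest on 20, 12 and 3 counts, and the log2 fold change of 4.80 became 5.41 without MDA-MB-231 vehicle 1. HIST2H4A was 23.3-fold and HIST2H3C 19.6-fold higher in HCC70. These 4 genes carry the HIST2 and HIST3 prefixes, whose summed shares were 12.1 and 26.9 times higher in HCC70 vehicle, against 2.3 times for HIST1. HIST1H2BK was 2.22-fold, HIST1H2AC 3.26-fold, HIST1H2BD 2.85-fold, HIST2H2AA3 9.06-fold and HIST1H1C 1.46-fold higher, each past the threshold, and HIST1H4H was 3.7-fold higher. Genes lower in HCC70 included HIST1H1E, a linker histone gene, with 0.302, 0.297 and 0.335 CPM in HCC70 vehicle, against 0.611, 0.867 and 0.806 CPM in MDA-MB-231 vehicle, 2.44-fold lower with an adjusted p of 0.000135 by edgeR. HIST2H2BB had 0.571, 0.711 and 0.395 CPM in HCC70 vehicle, against 0.786, 0.891 and 0.92 CPM in MDA-MB-231 vehicle. Its groups stood apart by little, its adjusted p was 0.0294 by edgeR, and 70.7% of its windows are shared with other members, so its count is uncertain, and its call was lost in 4 of 19 alternatives. The other 3 were HIST2H3PS2, a pseudogene by this symbol only, at -1.34, HIST1H3C at -1.70 and HIST1H2BB at -3.30 on the log2 scale.

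Class H2B made up 37.7% of the members' counts in HCC70 vehicle and 52.4% in MDA-MB-231 vehicle. H4 made up 27.2% and 10.6%, H2A 20.3% and 19.1%, H3 10.7% and 5.18%, and H1 4.06% and 12.7% in these groups. These shares count each near-equal pair under both names. With each pair taken once, H2B made up 43.8% and 53.7%, H2A 24.6% and 19.8%, H4 19.1% and 8.82%, H3 7.57% and 4.35%, and H1 4.91% and 13.2% in HCC70 vehicle and MDA-MB-231 vehicle. The polyadenylated list held 45.3% of member counts in HCC70 vehicle and 69.7% in MDA-MB-231 vehicle. Outside that list the summed share was 7.5 times higher in HCC70 vehicle, and within it 2.71 times. The near-equal pairs all lie outside the list and are counted here under both names. This raises the 7.5 and lowers the list's share of member counts, more so in HCC70.

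A stretch of adjacent HIST1 members on chromosome 6 had next to no counts in MDA-MB-231. It was chosen after its values were seen, as the longest run, in GENCODE 29 gene order, of HIST1 members with a median count of 0 over the MDA-MB-231 libraries, and it is described without a test. The run holds 17 of the 64 HIST1 members, from HIST1H4D to HIST1H2APS4, where the next longest held 4. The run summed to 386, 478 and 366 counts in HCC70 DEX libraries, against 570, 592 and 623 in HCC70 vehicle libraries. In MDA-MB-231 it summed to 2, 0 and 0 in DEX libraries, against 0, 0 and 38 in vehicle libraries. The 38 counts in MDA-MB-231 vehicle 3 lay in the first 7 genes of the run, HIST1H4D to HIST1H2BG, with 4 to 8 counts each, and the other 10 genes had no count in any MDA-MB-231 library.

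HIST1H2BH, an H2B gene within the run, had 185 counts over the HCC70 vehicle libraries and 0 in MDA-MB-231 vehicle, at least 64.3-fold higher when 3 counts over the group are taken as the limit a count of 0 allows. On the same basis HIST1H2AE was at least 44.9-fold, HIST1H3G at least 30.6-fold and HIST1H1D at least 15.3-fold higher. Just outside the run, HIST1H2BE had 215 counts in HCC70 vehicle and 127 in MDA-MB-231 vehicle, and HIST1H4H 1039 and 294. Between the run and HIST1H4H lies HIST1H2BI, with 12 counts in HCC70 vehicle and 4 in MDA-MB-231 vehicle. The 47 HIST1 members outside the run summed to 9941 to 10285 counts in HCC70 DEX libraries and 11473 to 13371 in HCC70 vehicle libraries, and to 5449 to 6563 in MDA-MB-231 DEX and 5382 to 5780 in MDA-MB-231 vehicle libraries. Of the 47 tested members of all clusters outside the run, 39 were higher and 5 lower in HCC70 vehicle, with a median log2 fold change of 1.51. Over all genes, 39.2% were higher and 40% lower. The 47 still include members that passed the filter only through HCC70, such as HIST3H2A, so this count is a description. The run took 1.7 to 2.15% of all member counts in HCC70 DEX libraries and 1.86 to 2.2% in HCC70 vehicle libraries, and leaving it out gave a ratio of 4.08 for the summed share between the lines, close to 4.16.

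**Figure D4:**
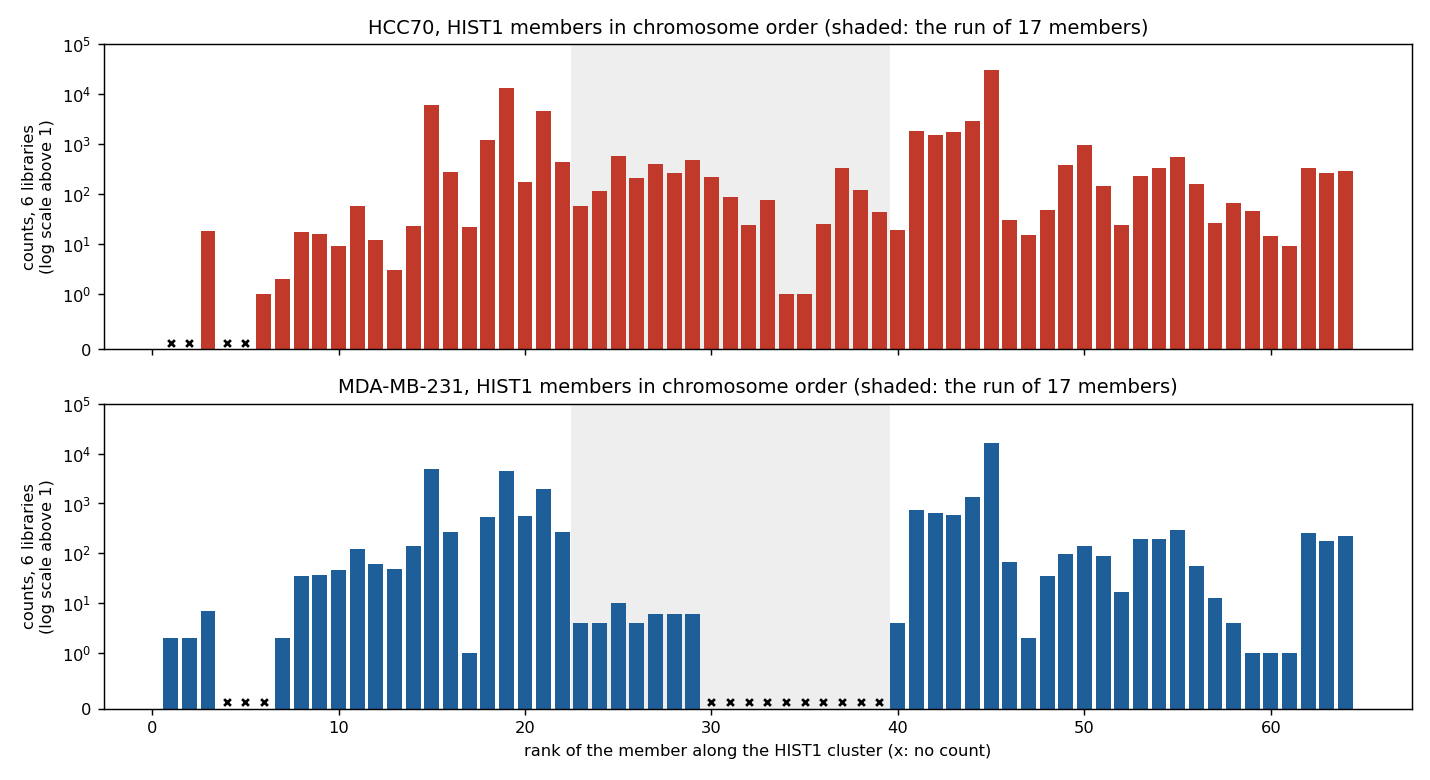
Counts over 6 libraries a line (symmetric log axis, linear below 1) of the 64 HIST1 members by rank along chromosome 6, HCC70 above MDA-MB-231, with the run of 17 shaded and crosses for members with no count. In the run HCC70 members reach 582 counts, and MDA-MB-231 members at most 10.

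Genes that work with histones were read from lists drawn up from general knowledge of the field. Of 25 genes of S phase and DNA replication, 2 fell and 0 rose in HCC70 by edgeR (unadjusted p under 0.05 for 9 and 0, DESeq2 2 and 0), with a median log2 fold change of -0.09, where 1.4% of all genes fell. These were RRM2, a subunit of ribonucleotide reductase, at 121 and 144 CPM in DEX and vehicle (adjusted p = 0.0484), and CLSPN, which acts in the replication checkpoint, at 40.9 and 52.2 CPM (adjusted p = 0.0357). In MDA-MB-231 6 fell and 0 rose (unadjusted 11 and 0, DESeq2 7 and 0), where 7.96% of all genes fell. Among them were MCM2, a helicase subunit, at 106 and 129 CPM, E2F1, an S phase transcription factor, at 107 and 173 CPM, CDT1, which licenses origins, at 36.9 and 61.4 CPM, and FEN1, a flap nuclease, at 56.2 and 71.0 CPM in DEX and vehicle. Between the lines in vehicle, 8 of the 25 were higher and 13 lower in HCC70, with a median log2 fold change of -0.51. Over all genes, 39.2% were higher and 40% lower.

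Of 12 histone variants that are made outside S phase, 0 passed in HCC70 by edgeR, with 1 lower at an unadjusted p under 0.05 and 1 lower by DESeq2. In HCC70 H2AFY, a macroH2A, was at 232 and 239 CPM in DEX and vehicle. In MDA-MB-231, where 6.65% of all genes rose, 3 of the 12 did: H2AFY at 301 and 252 CPM, the linker variant H1F0 at 104 and 84.04 CPM, and H3F3A, which encodes the replacement H3, at 43.9 and 36.5 CPM in DEX and vehicle. Of 22 genes of histone RNA processing and decay, 0 passed in HCC70 by edgeR and by DESeq2, with 3 lower at an unadjusted p under 0.05. In MDA-MB-231 CPSF3, the endonuclease that cuts histone messages, rose to 50.5 CPM after DEX, against 43.3 CPM in vehicle, and CASP8AP2, a factor of histone locus bodies, fell to 22.6 CPM, against 27.1 CPM. By edgeR 1 of the 22 rose and 1 fell there, where 6.65% of all genes rose and 7.96% fell. Of 16 histone chaperones and acetyl transferases, CHAF1B, a subunit of the replication-coupled assembly factor, fell in HCC70 to 16.2 CPM after DEX, against 19.8 CPM in vehicle (adjusted p = 0.0339 by edgeR). By edgeR 1 of the 16 fell and 0 rose in HCC70, where 1.4% of all genes fell. At an unadjusted p under 0.05, 5 were lower and 2 higher. In MDA-MB-231 the chaperone NAP1L1 rose to 549 CPM, against 457 CPM, and CHAF1A, another assembly factor subunit, fell to 69.4 CPM, against 84.2 CPM. There 1 of the 16 rose and 1 fell by edgeR, with 2 and 4 at an unadjusted p under 0.05. Over all genes 6.65% rose and 7.96% fell.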

How the data were processed

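RNA counts came from polyA-selected, non-stranded libraries of HCC70 and MDA-MB-231 cells, in the 4 groups the labels name. The deposited table holds whole-number counts per gene that the authors did not scale, as the values show; reads were mapped to hg19 with TopHat 1.4.1, and Cufflinks 1.3.0 and bedtools were also used, per the submitters' processing notes. Which tool made the counts is not given in the sources used here. All columns matched a library (0 did not). Libraries held 106300000 to 123200000 counts; limits from 3 counts cover counting error only.

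Members, lists and naming rule were chosen with earlier results of these data known. edgeR 4.0.16 (R 4.3.3) was run with TMM, filterByExpr (minimum count 10) and a robust quasi-likelihood fit of 4 group means to all 12 libraries, two-sided, with Benjamini-Hochberg adjustment over 28141 genes at 0.05. The rule names the 10 members of highest mean CPM and, per contrast, up to 6 per direction with the largest change among those called whose mean log2 CPM is not under -1; list genes are up to 4 called members per DEX contrast or else the 2 of highest CPM. Alternatives were other scalings, filters, DESeq2 1.42.0, a replicate block, each line alone, left-out libraries and a GC and length correction; scripts were tested on simulated data. Annotation (GENCODE 29 and RefSeq, matched by symbol) is on another build than hg19; all 84 members matched GENCODE and 61 a RefSeq promoter. Stem-loops were sought by a 6-base stem and 4-base loop.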

Additional observations from a re-analysis of the deposited data

Results flagged for a closer look

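The log2 difference of the DEX responses of HIST1H4H, HCC70 minus MDA-MB-231, was -0.89 (SE 0.18), and the test of the difference itself put it here (adjusted p = 0.00602 by edgeR). Its mean was 2.35 CPM in HCC70 DEX and 3.0 CPM in HCC70 vehicle libraries, and 1.17 CPM in MDA-MB-231 DEX and 0.809 CPM in MDA-MB-231 vehicle libraries. All 3 DEX libraries lay below vehicle in HCC70 and above vehicle in MDA-MB-231. Groups of 3 libraries are too small for a test of single outlying libraries.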

How the results depend on the processing

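Members called in HCC70 DEX against vehicle numbered 3; with library size only or by DESeq2 they were 5, with a GC and length correction 6, without MDA-MB-231 vehicle 1 and DEX 2 they were 10, with HCC70 fitted alone 17, and 2 to 6 when each library was left out, with the 6 without MDA-MB-231 DEX 2. In MDA-MB-231 the 3 became 6 by DESeq2 and 6 with the GC and length correction, 0 with the line fitted alone, and 2 to 4 with a library left out. For the difference of the responses the 1 became 3 with upper quartile scaling, 6 with library size only, 4 with the strict filter (1 CPM in 3 libraries), 4 by DESeq2, 5 without MDA-MB-231 vehicle 1 and DEX 2 and 5 with the GC and length correction, and 1 to 9 with a library left out (2 without HCC70 vehicle 2, 3 without HCC70 vehicle 3, 9 without MDA-MB-231 DEX 2 and 6 without MDA-MB-231 vehicle 3). Calls over all genes moved with these settings too. For the difference they were 3391 of 28141 in the main fit and 6259 of 28710 without MDA-MB-231 DEX 2. Without MDA-MB-231 vehicle 3 they were 5789 of 28676. In MDA-MB-231 they were 4110 of 28141, and 5062 by DESeq2. In HCC70 they were 1114 of 28141, and 4828 of 25309 with the line fitted alone. The member counts are thus a description. Between the lines in vehicle the 56 became 21 with the strict filter, which left 21 members to test, and 50 to 57 with a library left out. The cause was not tested elsewhere. With library size only, the median of all genes moved to -0.10 in HCC70, -0.13 in the difference and -0.11 between the lines, where upper quartile scaling gave -0.13; 53 to 56 of the 59 members stayed below 0 in HCC70 under these scalings.

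With the replicate number as a block, members called were 2 in HCC70, 2 in MDA-MB-231 and 3 in the difference. The numbers did not pair the libraries: same-numbered deviations correlated at -0.233, 0.118 and 0.0105 in HCC70 and -0.634, -0.261 and 0.33 in MDA-MB-231. Some MDA-MB-231 libraries of different number did correlate, at 0.712 for DEX 2 with vehicle 1 and 0.617 for DEX 1 with vehicle 3. DEX 2 with vehicle 3 gave -0.661. Neither the group means nor the block model such shared deviations. In HCC70, values for different numbers lay between -0.24 and 0.214.

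The summed share ratio of 0.748 in HCC70 was 0.795 with TMM library sizes, 0.711 without the polyadenylated list, and 0.734 to 0.76 with a library left out; in MDA-MB-231 it was 1.0 to 1.1 with a library left out. Between the lines the ratio of 4.16 was 5.38 without HIST1H2BK, 7.5 without the polyadenylated list, 3.57 with near-equal copies taken once (chosen after seeing the data, as was leaving out the HIST1 run), and 4.04 to 4.31 with a library left out. The 7.5 counts the near-equal pairs under both names, which raises it. Of 431 alternatives for the 21 named gene calls, 404 stayed past the threshold, 27 did not and 0 reversed.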
